A study of Homo sapiens with 40 samples.

Results

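The epidermal differentiation complex is a run of gene families on chromosome band 1q21 that epidermal cells use to build the outer layer of the skin. Its genes were taken here as the protein-coding genes in a 3 Mb stretch of hg38 chromosome 1 around the complex whose symbols begin with S100A, LCE, SPRR, FLG, TCHH or PGLYRP, together with IVL, CRNN, RPTN, HRNR and LORICRIN. RefSeq listed 57 such genes among 19970 protein-coding genes on chromosomes 1 to 22 and X. They ran from S100A10 to S100A1, over 1651 kb (chr1:151982915-153634361). The measure was the percent of each gene body, start to end of the annotation, that lay inside merged H3K27me3 peaks of a library. The naming rule uses symbols and positions only. H3K27me3 is the histone mark laid down by Polycomb repressive complex 2.

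In skin, keratinocytes switch these genes on late in their differentiation. Involucrin (IVL), loricrin, the small proline-rich (SPRR) proteins and the late cornified envelope (LCE) proteins are cross-linked by transglutaminases into a tough shell under the cell membrane. Filaggrin (FLG), filaggrin 2, hornerin, repetin, cornulin and the trichohyalins belong to the S100-fused family, in which a calcium-binding S100 domain is joined to long repeats, and several of them bind keratin filaments or enter the envelope. The S100A genes encode small calcium-binding proteins. Some, such as S100A8, S100A9 and S100A12, are best known from myeloid cells, and others, such as S100A4, S100A6, S100A10 and S100A11, are made by many cell types. PGLYRP3 and PGLYRP4 encode peptidoglycan recognition proteins that act against bacteria at surfaces. None of the cornified envelope genes is known for a role in plasma cells. In many cell types that do not use them, such clusters carry repressive chromatin, while the H3K36me2 that NSD2 deposits hinders the enzyme that writes H3K27me3.

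All libraries came from KMS-11, an established myeloma cell line whose t(4;14) translocation drives NSD2 to a high level. H3K27me3 was mapped by CUT&Tag, a method in which an antibody guides a transposase that cuts and tags nearby DNA, from 50000 nuclei and 13 PCR cycles for each library. The KO experiment held NSD2 KO clones 3 and 12 and their wild-type parental line, all untreated. The dTAG experiment held NSD2_dTAG knockin clones 8 and 11 and the wild-type line they were engineered from, each at days 0, 7, 14 and 21 of dTAGV-1, a degrader of dTAG-tagged proteins. The protocol gives 100 nM for the knockin cells and no dose for the wild-type line. Each of the 15 groups had 2 libraries, 30 in all, and each engineered line is a single clone. The replicates of the clones are called biological in the series text. No label says that the parental libraries came from separate cultures, so p-values measure the spread between these libraries, which may be technical.

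The lists held 34740 to 205920 peaks and covered 36.1 to 168 Mb. Read depth is not in the lists. A background pileup solved from the peak values, used here in its place, ran from 0.922 to 3.26 fragments per position. KO clones averaged 130 Mb called at a pileup of 2.49, against 67.4 Mb at 2.04 in their parental line. At day 21 the dTAG clones averaged 120 Mb at 2.33, against 50.7 Mb at 1.44 at day 0. The larger called length and depth of the KO and treated libraries move with every gain below. NSD2 itself was at most 0.975% covered in any library, so the lists do not check its loss. As a check of the labelled cell type, the 8 plasma cell genes had mean coverages of 0.127% to 34.8% (highest in SLAMF7). The 5 keratinocyte genes had 0.232% to 29.6% (highest in KRT1). Medians were 3.83% for the plasma cell genes and 8.17% for the keratinocyte genes. The ranges overlap widely, so these values do not tell the cell types apart. Peaks do not give expression.

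Most promoters of the complex are poor in CpG. RefSeq (GRCh38.p14) gave promoters for 54 of the 57 genes. In the 250 bases before the start, the genes of the complex held a median of 2 CpG dinucleotides, against 17 over all 15811 promoters, and 4 of 54 (7.41%) held 10 or more, against 68.6% of all. The letters TATAAA, on either strand, were in 28 of 54 (51.9%), against 9.25% of all promoters. The letters TGANTCA, a form of the AP-1 site, on either strand, were in 17 of 54 (31.5%), against 5.05%. That match was in 6 of 7 S100-fused, 6 of 9 SPRR, 2 of 2 LORICRIN and IVL, 0 of 18 LCE and 3 of 16 S100A promoters. The 4 CpG-rich promoters belonged to S100A6, S100A10, S100A11 and S100A13.

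The sequences below are the 250 bases upstream of 4 genes, chosen after their values were seen to set 3 CpG-poor promoters beside a CpG-rich one. CpG dinucleotides are in capitals, and each runs 5′ to 3′ toward its gene. LCE3E is at chr1:152566781-152567030 (minus strand), SPRR1B at chr1:153030953-153031202 (plus strand), LORICRIN at chr1:153259437-153259686 (plus strand) and S100A6 at chr1:153535992-153536241 (minus strand).
LCE3E: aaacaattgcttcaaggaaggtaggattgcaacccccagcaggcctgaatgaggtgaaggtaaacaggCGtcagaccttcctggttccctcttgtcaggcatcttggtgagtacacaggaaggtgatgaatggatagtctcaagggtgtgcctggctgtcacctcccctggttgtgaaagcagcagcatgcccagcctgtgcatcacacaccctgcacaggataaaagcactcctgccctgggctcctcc
SPRR1B: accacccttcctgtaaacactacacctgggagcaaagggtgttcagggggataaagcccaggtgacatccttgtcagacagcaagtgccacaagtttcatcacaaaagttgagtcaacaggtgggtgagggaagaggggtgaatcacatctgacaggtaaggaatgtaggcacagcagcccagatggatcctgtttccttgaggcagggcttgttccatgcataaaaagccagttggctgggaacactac
LORICRIN: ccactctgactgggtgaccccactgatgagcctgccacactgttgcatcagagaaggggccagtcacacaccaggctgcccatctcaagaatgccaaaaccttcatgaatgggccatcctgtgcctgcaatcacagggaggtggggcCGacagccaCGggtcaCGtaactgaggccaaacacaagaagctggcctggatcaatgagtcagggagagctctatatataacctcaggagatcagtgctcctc
S100A6: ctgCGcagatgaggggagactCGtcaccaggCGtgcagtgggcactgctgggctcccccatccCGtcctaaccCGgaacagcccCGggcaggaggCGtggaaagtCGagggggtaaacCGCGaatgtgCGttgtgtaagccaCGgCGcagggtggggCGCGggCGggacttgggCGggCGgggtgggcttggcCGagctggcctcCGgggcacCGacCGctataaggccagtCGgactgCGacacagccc

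The LCE3E window holds 1 CpG, the SPRR1B window none, the LORICRIN window 3 and the S100A6 window 24. Over a window of 300 bases, from 250 before to 50 after the start, a peak touched the LCE3E promoter in 16 of the 16 KO and treated clone libraries, against 1 of the 14 parental and day 0 libraries. It touched the SPRR1B promoter in 12 of 16, against 0 of 14, and the LORICRIN promoter in 16 of 16, against 6 of 14. The S100A6 promoter was touched in 16 of 16 and 14 of 14. All 4 CpG-rich windows were touched in every one of the 30 libraries. Of the 50 windows with fewer CpG, 8 were touched in all 16 KO and treated clone libraries and 1, that of S100A1, in all 14 others. There were 6 touched in none of the 16, against 22 in none of the 14. The median CpG-poor window was touched in 8.5 of the 16 libraries, against 1 of the 14. Touched windows were not counted over all promoters, so these counts do not set the complex apart from other genes.

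Along the chromosome the complex falls into blocks of like genes, and the LCE and SPRR blocks were close to empty in the parental and day 0 libraries. Covered percent of the 350 kb LCE block (chr1:152510803-152861252) was 19.6 and 15.5 in KO clone 3 and 16.6 and 10.6 in KO clone 12, against 1.67 and 1.06 in the KO parental libraries. All 4 KO libraries lay above both parental ones. At day 21 it was 17.7 and 13.6 in dTAG clone 8 and 17.0 and 8.28 in clone 11, against 0.961 and 0.184 in clone 8 and 0.738 and 0.930 in clone 11 at day 0. Again no library of one group reached the other. In the dTAG parental line the same block was 4.52 and 2.00 at day 21, against 0.921 and 0.885 at day 0.

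The 256 kb SPRR block (chr1:152947206-153203278) behaved alike. Coverage averaged 13.2% ± 3.02 (SD, n = 4) for the KO clones, against 0.857% ± 0.160 for the KO parental line (n = 2). It was 10.5% ± 2.80 in the dTAG clones at day 21 and 0.438% ± 0.231 at day 0 (n = 4 each). Each n = 4 here and below is 2 libraries from each of 2 clones, so its SD mixes spread within and between clones. Over all libraries, the 16 from KO and treated clones ran from 7.03% to 15.6% and the other 14 from 0.105% to 2.83%. The ranges for the LCE block were 6.45% to 19.6% and 0.184% to 4.52%. Those for the S100-fused block (chr1:152084141-152414263) were 11.6% to 19.3% and 3.65% to 9.93%. None of the 3 overlapped. The S100-fused block did overlap when scaled by called length (10.4% to 15.0%, against 8.09% to 11.7%) and with lists of equal length (4.67% to 8.73%, against 3.34% to 5.57%). In the PGLYRP block (8.21% to 27.3%, against 1.13% to 9.91%) and the S100A block (chr1:153357854-153634361; 16.5% to 31.3%, against 4.22% to 21.4%) the ranges overlapped. These 16 and 14 libraries share clones across days and the day 0 libraries serve all days, so they are set side by side as a description.

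**Figure D1:**
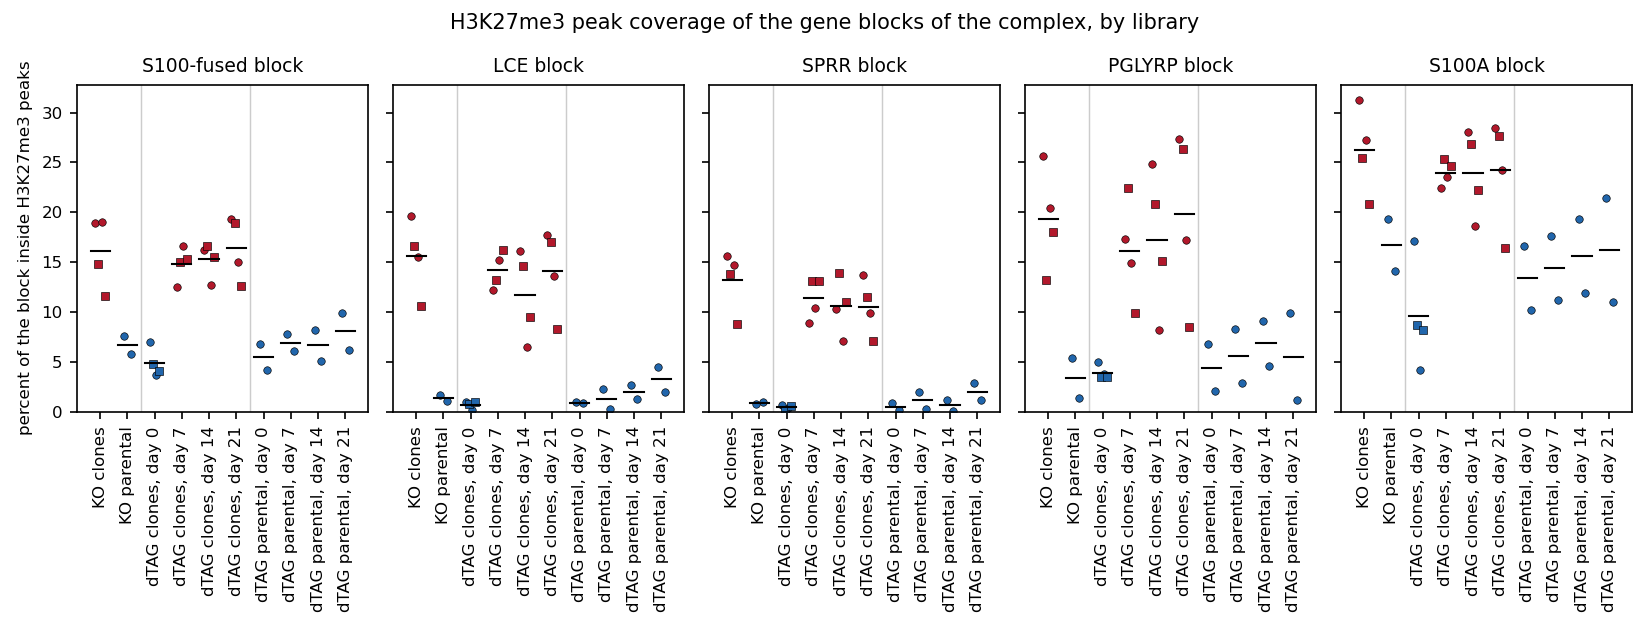
Percent of each gene block inside H3K27me3 peaks (vertical axis) by group (horizontal axis). Each point is 1 library (red for KO and treated clones, blue for parental and day 0; squares for KO clone 12 and dTAG clone 11, circles for all others) and each bar a group mean; in the LCE block the red points lie between 6.45% and 19.6% and the blue ones between 0.184% and 4.52%.

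The new coverage came as many short peaks. The LCE block held 38 to 70 peaks in a KO library, against 6 to 11 in a parental one, and its longest peak in any of the 16 KO and treated clone libraries was 3763 bp. At day 21 it held 36 to 72 peaks, against 2 to 5 at day 0. The peaks lay over the LCE genes more than between them. Inside LCE gene bodies 54.5% of the bases were covered in the KO clones, against 3.74% in the parental line, while between the genes it was 12.9%, against 1.20%. At day 21 the LCE gene bodies were 47.0% covered, against 1.79% at day 0, and the space between them 11.9%, against 0.628%. In the SPRR block, where SPRR2B and SPRR2G have long annotated bodies, the figures were 16.8% inside and 11.1% between in the KO clones, against 1.38% and 0.554%.

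Estimated depth moved with the groups, and its part in the gains was not tested beyond the values given here. Pileup was 1.61 to 2.84 in the 16 KO and treated clone libraries, and 6 of the other 14 reached at least 1.61. Those 6, from 1.93 to 3.26, had 0.921% to 4.52% of the LCE block covered and 0.659% to 2.83% of the SPRR block, against 6.45% to 19.6% and 7.03% to 15.6% in the 16. The library with a pileup of 3.26, dTAG parental at day 21, gave both upper values. In the S100A block the same 6 libraries had 16.7% to 21.4%, within the range of the 16. When every list was shortened to its strongest peaks, down to the called length of the shortest list, the LCE block still did not overlap (1.08% to 4.27%, against 0% to 0.885%). The SPRR block then overlapped (0.505% to 3.59%, against 0% to 0.564%). With peaks of -log10 q of at least 5 alone, the LCE block reached only 0% to 3.02%, against 0% to 0.137%.

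**Figure D2:**
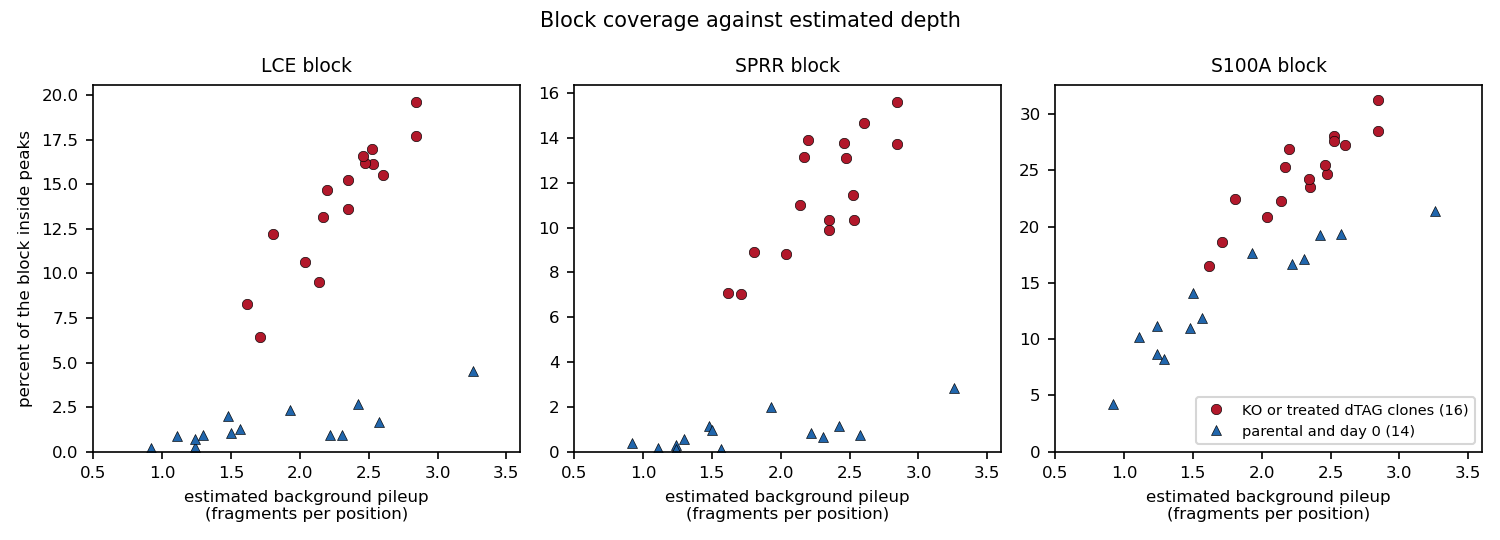
Percent of the LCE, SPRR and S100A blocks inside peaks (vertical axes, with different scales) against estimated background pileup in fragments per position (horizontal axis), 1 point per library, red circles for the 16 KO and treated clone libraries and blue triangles for the 14 others. Blue points reach 4.52% in the LCE block, 2.83% in the SPRR block and 21.4% in the S100A block, and pileup runs from 1.61 to 2.84 for the red points and from 0.922 to 3.26 for the blue ones.

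Gene by gene, 52 of the 57 genes entered the test, limma over all 30 libraries with Benjamini-Hochberg adjusted p under 0.05. LCE1A, LCE3A, LCE3B and LCE3C are under 1 kb, and S100A5 had a mean coverage under 1%. A called gene with a positive difference is termed gained, one with a negative difference lost. In the KO clones 15 of the 52 were gained and 0 lost, against 18% gained and 0.744% lost over all 13975 genes tested. Without the first KO parental library the gained genes numbered 9, and without the second 8. At day 21 of dTAGV-1, 22 were gained and 0 lost, against 26.5% and 0.494%. The median difference of the 52 genes was 18.4 points of covered percent in the KO comparison and 18.4 at day 21, against 1.46 and 2.05 over all genes tested. The 52 passed a filter on mean coverage that the KO and treated libraries helped to pass, so these shares describe them only. Scaled by called length, the KO split became 11 gained and 5 lost, against 11.5% and 13.5% over all genes in that fit. The day 21 split became 14 gained and 5 lost, against 16.1% and 31.6%. That scaling moved the median of all genes to -1.31 and -1.34 points. With pileup in the fit, 12 were gained and 1 lost at day 21, against 16.1% gained over all genes. With lists of equal length the gained genes numbered 2 of 43 in the KO comparison and 4 of 43 at day 21, and with -log10 q of at least 5 there were 0 of 30 in both. For these lists, and with a library left out, shares over all genes are not given here, so the counts describe the complex only.

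**Figure D3:**
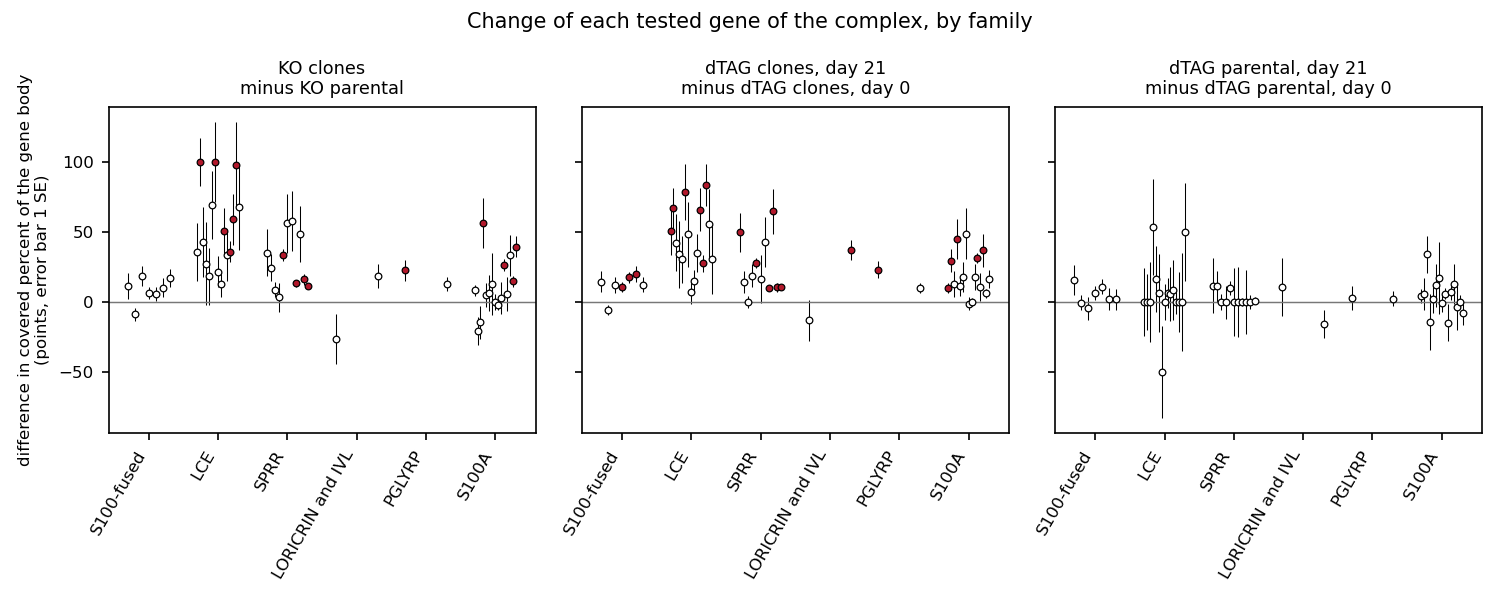
Difference in covered percent of the gene body (points, vertical axis, error bars 1 SE from limma) for each tested gene of the complex, by family (horizontal axis), for the KO clones, the dTAG clones and the dTAG parental line. Filled points have an adjusted p under 0.05: 15 in the KO clones, 22 in the dTAG clones at day 21 and 0 in the dTAG parental line.

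The LCE genes carried the largest single changes in covered percent. These 19 small genes encode late cornified envelope proteins, made at the very end of keratinocyte differentiation. Those tested span 1098 bases (LCE2A) to 2170 bases (LCE1E), so a single peak can cover most or all of a body, which it cannot do in a long gene. Of the 15 tested, 6 were gained in the KO clones (LCE3E, LCE2A, LCE1E, LCE1C, LCE1B and LCE6A) and 6 at day 21 (LCE5A, LCE3E, LCE2B, LCE1D, LCE1C and LCE1B), with median differences of 42.8 and 42.3 points. That is 40% in both, against 18% and 26.5% over all genes. At day 7 it was 9 of 15 (60%), against 21.1% over all genes, but at day 14 only 3 of 15 (20%), against 22%. All 15 were higher in the KO and day 21 comparisons, but most could not have been lower. All but LCE5A, LCE3D and LCE1D were at 0% in both KO parental libraries. All but LCE3E, LCE2D and LCE1D were at 0% in the 4 day 0 clone libraries. Some LCE genes are close copies of one another. How reads that fit several places were treated is not given in the sources used here, so values of single copies are uncertain.

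LCE3E (chr1:152565654-152566780) was wholly covered, 100%, in all 4 KO clone libraries, against 0% in both KO parental libraries. At day 21 it was 100% and 61.3% in dTAG clone 8 and 100% and 88.6% in clone 11, against 81.1% and 0% in clone 8 and 0% and 0% in clone 11 at day 0. A single day 0 library therefore reached into the treated range. The difference was 100 points (SE 17.4, adjusted p = 0.000641, limma) in the KO clones and 67.2 points (SE 14.2, adjusted p = 0.00191) at day 21. Cut to equal list length, the KO clones and their parental line were both at 0% for LCE3E, so its KO peaks were among the weaker ones of their lists. LCE3C, its neighbour, too short for the test, had the highest mean of the family, 55.4% over all libraries. It was at 100% in all 4 KO libraries, against 0% in both parental ones, and at 69.1% to 100% at day 21, against 0% in all 4 at day 0.

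LCE2A stood at 100% in the 4 KO libraries, against 0% in the parental pair (difference 100, SE 28.7, adjusted p = 0.0199, limma). At day 21 it was uneven, with 80.5% and 12.7% in clone 8 and 100% and 0% in clone 11, against 0% in all 4 at day 0, and was not called (adjusted p = 0.148). The second dTAG parental library at day 0 also had 100% of LCE2A covered. LCE6A showed the same split. It was at 100%, 100%, 100% and 92.3% in the KO clones, against 0% and 0% (difference 98.1, SE 30.4, adjusted p = 0.0304). In the day 21 clones it was at 100%, 22.4%, 100% and 0%, against 0% in all 4 at day 0, with an adjusted p of 0.113.

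LCE1B was bare in all 14 parental and day 0 libraries. It was covered to 73.3% and 0% in KO clone 3 and 81.7% and 81.0% in KO clone 12 (difference 59.0, SE 18.3, adjusted p = 0.0309, limma), and to 79.3%, 86.6%, 100% and 68.7% at day 21 (difference 83.7, SE 15.0, adjusted p = 0.000527). The second library of KO clone 3 was the exception. LCE1E had 68.8%, 61.9%, 63.3% and 9.08% in the KO clones, against 0% and 0% (adjusted p = 0.0414), and 61.9%, 10.1%, 66.8% and 0.323% at day 21, against 0% in all 4 at day 0 (adjusted p = 0.0692). In both comparisons 1 or 2 libraries fell far below the rest.

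LCE2B was gained at day 21, where it had 100% and 15.1% in clone 8 and 100% and 99.3% in clone 11, against 0% in all 4 at day 0 (difference 78.6, SE 19.7, adjusted p = 0.00622, limma). The KO clones had 100%, 59.7%, 100% and 16.9%, against 0% and 0%, and were not called (adjusted p = 0.0548). LCE1D was part covered beforehand. It had 92.6%, 93.3%, 90.0% and 35.7% at day 21, against 26.8%, 0%, 0% and 20.8% at day 0 (difference 66.0, SE 15.1, adjusted p = 0.00336). In the KO clones it had 86.9%, 45.0%, 87.3% and 34.4%, against 17.4% and 42.8%, which overlap. LCE5A had 25.7%, 76.4%, 100% and 0% at day 21, against 0% in all 4 at day 0 (difference 50.5, SE 16.9, adjusted p = 0.0344). In the KO clones it had 90.4%, 23.1%, 31.8% and 29.5%, against 16.4% and 0% (adjusted p = 0.297). LCE3B, of 288 bases, was at 0% in all 4 KO libraries and at 50.3% to 100% in all 4 day 21 libraries, and it was noticed after its values were seen.

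**Figure D4:**
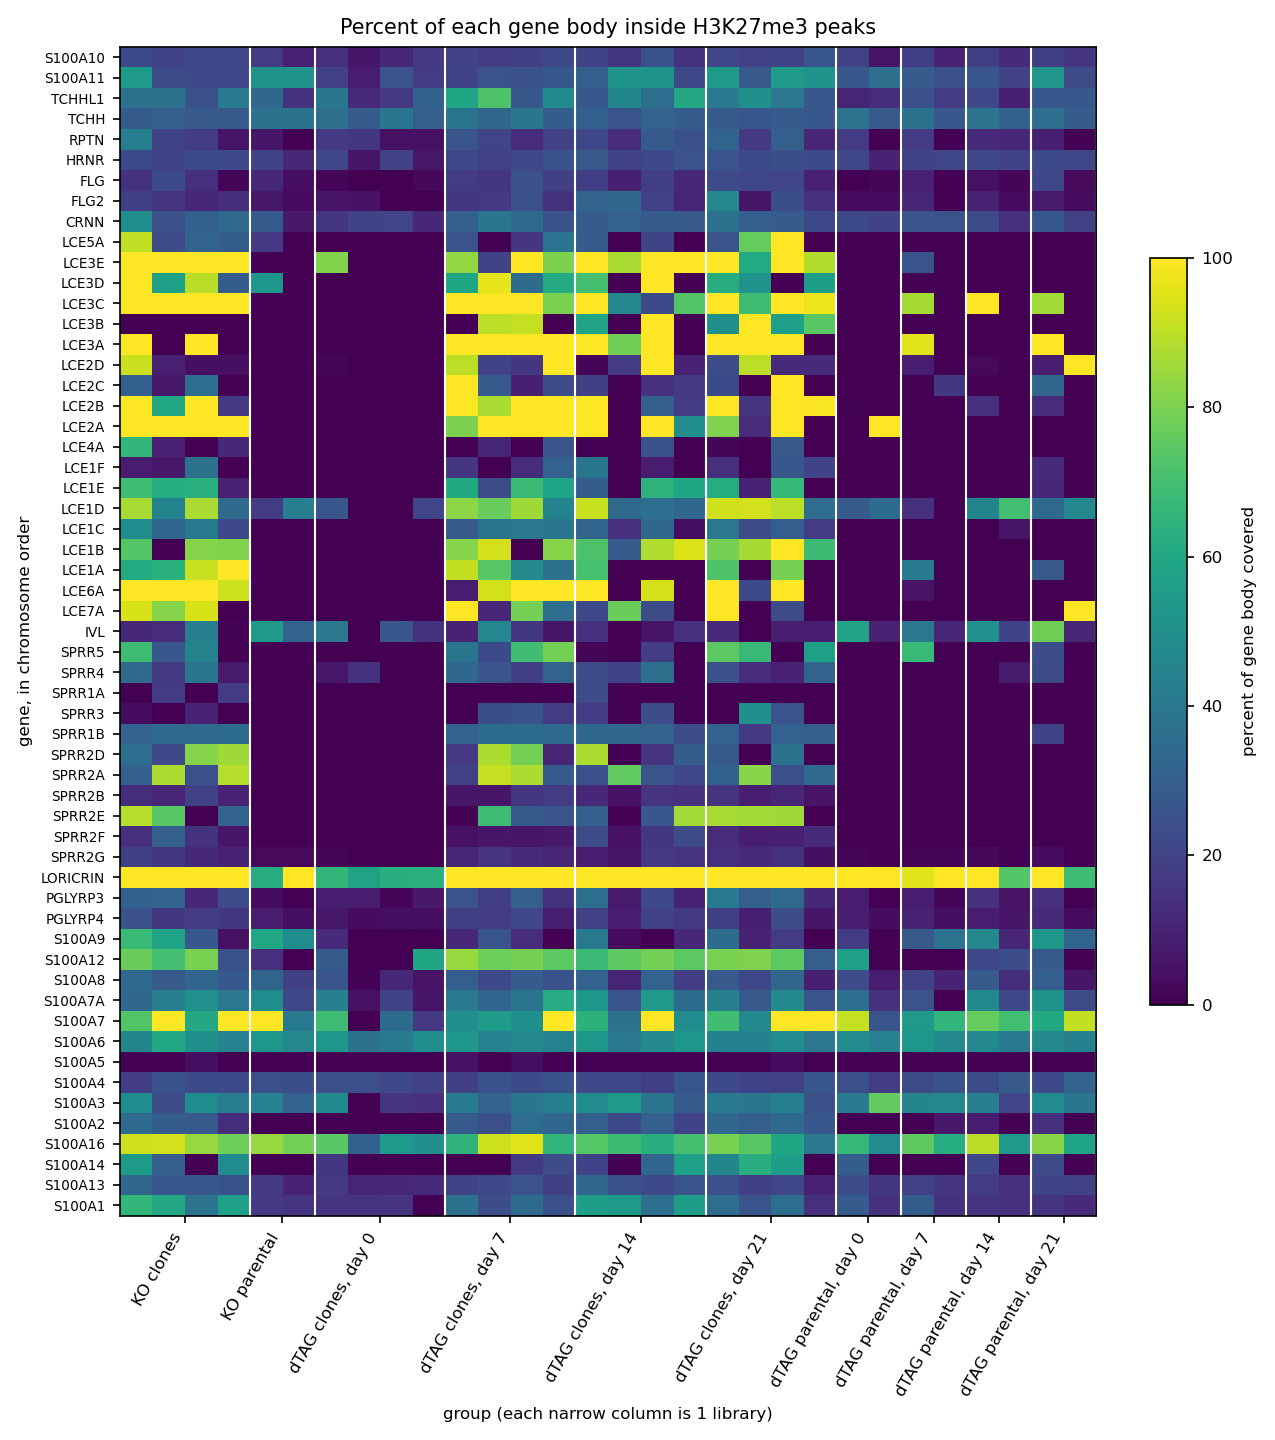
Percent of each of the 57 gene bodies inside peaks, as colour (scale at right), with genes from top to bottom in chromosome order and 1 narrow column per library. Most LCE and SPRR rows are at or near 0% in the KO parental, dTAG parental and day 0 columns and above 0% in the KO and treated clone columns, while S100A6, S100A4 and TCHH are above 0% in all 30 columns.

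The SPRR genes encode small proline-rich proteins that cross-bridge the envelope. Of 11 tested, 4 were gained in the KO clones (SPRR1B, SPRR2B, SPRR2F and SPRR2G) and 6 at day 21 (those 4, SPRR5 and SPRR2E). That is 36.4% and 54.5%, against 18% and 26.5% over all genes. No SPRR gene was lower in either comparison, with median differences of 24.5 and 16.4 points, but most could not have been lower. All but SPRR2G were at 0% in both KO parental libraries, and all but SPRR4 and SPRR2G in the 4 day 0 clone libraries. SPRR2A, SPRR2B, SPRR2D, SPRR2E, SPRR2F, SPRR1A and SPRR3 were at 0% in all 14 parental and day 0 libraries. The SPRR2 genes, too, are close copies. In the annotation used, SPRR2G spans 53697 bases and SPRR2B 17574, so a low percent there can still be a long stretch.

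SPRR1B (chr1:153031203-153032900), picked after its values were seen, was the most even gene of the family. It had 31.3% and 34.1% in KO clone 3 and 34.1% and 35.4% in KO clone 12, against 0% in both parental libraries (difference 33.7, SE 4.28, adjusted p = 5.39e-05, limma). By day 21 it had 31.6%, 17.1%, 31.3% and 30.4%, against 0% in all 4 at day 0 (difference 27.6, SE 3.498, adjusted p = 3.65e-05). Every KO and treated clone library carried peak there, from 17.1% upward, and of the 14 others a single one did, the deep dTAG parental library of day 21, with 20.5%. SPRR2A had the highest mean of the family, 25.9%. It had 30.5%, 87.7%, 24.5% and 88.8% in the KO clones, against 0% and 0%, and 31.1%, 82.4%, 24.3% and 34.2% at day 21, against 0% in all 4 at day 0. Its groups were wholly apart, but the spread kept it from being called (adjusted p = 0.0746 and 0.0831).

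SPRR2E had 87.0%, 86.1%, 85.8% and 0% at day 21, against 0% in all 4 at day 0 (difference 64.7, SE 16.1, adjusted p = 0.00589, limma). In the KO clones it had 88.9%, 74.1%, 0% and 31.3%, against 0% and 0% (adjusted p = 0.104). A single library without any peak on the gene sat in each changed group. SPRR2G, also chosen after its values were seen, had 19.1%, 16.3%, 11.6% and 9.72% in the KO clones, against 2.42% and 2.41% (difference 11.8, SE 2.10, adjusted p = 0.000777). It had 13.5%, 11.8%, 14.6% and 4.27% at day 21, against 1.25%, 0%, 0% and 0% at day 0 (difference 10.7, SE 1.72, adjusted p = 0.000214).

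As a family, the S100-fused genes were part covered in every group. TCHHL1, TCHH, HRNR and CRNN had some peak in all 30 libraries. RPTN, FLG and FLG2 had some in 10, 10 and 11 of the 14 parental and day 0 libraries. FLG2 was at 0% in both clone 11 libraries of day 0. Of 7 tested, 0 were gained in the KO clones (2 at an unadjusted p under 0.05), and 3 were gained at day 21, HRNR, FLG and FLG2. That is 0% and 42.9%, against 18% and 26.5% over all genes. FLG (chr1:152302165-152325239), whose product filaggrin bundles keratin, had 22.9% and 21.2% in clone 8 and 20.9% and 9.22% in clone 11 at day 21, against 1.40%, 0%, 0% and 2.15% at day 0 (difference 17.7, SE 4.00, adjusted p = 0.00306, limma). Those groups did not overlap. In the KO clones it had 14.8%, 22.6%, 13.6% and 1.73%, against 11.0% and 3.58%, which overlap (adjusted p = 0.518). The dTAG parental line had 21.4% and 2.55% at day 21, against 0% and 1.88% at day 0, so its deep library matched the treated clones at FLG.

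TCHHL1, trichohyalin-like 1, had the highest mean of the S100-fused genes, 32.4%. It had 37.7%, 37.3%, 24.9% and 41.5% in the KO clones, against 33.4% and 14.7%, and 40.7%, 49.9%, 39.6% and 27.0% at day 21, against 39.2%, 11.8%, 16.6% and 31.2% at day 0. Both pairs of groups overlapped, and neither was called (adjusted p = 0.503 and 0.174). TCHH, trichohyalin of hair follicles, was the family's only gene with a lower mean in both comparisons. It had 29.1%, 30.2%, 28.0% and 28.3% in the KO clones, against 37.9% and 37.6%, and 28.6%, 26.6%, 28.8% and 27.5% at day 21, against 36.8%, 29.1%, 39.2% and 29.8% at day 0. The groups did not overlap, but neither difference was called (adjusted p = 0.213 and 0.277, limma), while both were called lost when coverage was scaled by called length.

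LORICRIN and IVL are the 2 classic envelope genes. LORICRIN (chr1:153259687-153262124), the main protein of the envelope, was the most covered gene of the complex, with a mean of 91.7%. It was at 100% in every KO and treated clone library. The KO parental libraries had 62.4% and 100%, and the day 0 clones 66.0%, 57.5%, 63.1% and 63.3%. It was gained at day 21 (difference 37.5, SE 7.12, adjusted p = 0.000841, limma) and not in the KO clones (difference 18.8, SE 8.73, adjusted p = 0.165). A gene at 100% cannot gain further, and under scaling by called length LORICRIN changed sign, to -47.6 and -38.1 points, without being called.

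IVL (chr1:152908546-152911886), the scaffold on which the envelope is built, had lower means in the KO and treated clones. It had 11.5%, 12.5%, 42.7% and 1.05% in the KO clones, against 54.4% and 31.9%, and 12.5%, 0%, 8.29% and 8.41% at day 21, against 40.1%, 0%, 27.1% and 14.5% at day 0. Both pairs overlapped. The differences were -26.2 points (SE 17.9, adjusted p = 0.398, limma) and -13.1 points (SE 14.7, adjusted p = 0.581). With pileup in the fit IVL was called lost in both, by -40.4 points (adjusted p = 0.00573) and -41.5 points (adjusted p = 0.00279). IVL lies between the LCE and SPRR blocks, both of which gained. The 25-kb window that holds IVL was higher, at 13.7% at day 21, against 2.73% at day 0 (adjusted p = 0.0281, limma). In the KO clones that window was at 15.0%, against 7.34% (adjusted p = 0.235, limma).

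PGLYRP3 (chr1:153297116-153312952) was gained in both comparisons. It had 31.1%, 31.9%, 11.7% and 23.2% in the KO clones, against 3.46% and 0% (difference 22.7, SE 7.46, adjusted p = 0.0410, limma). It had 41.5%, 30.2%, 34.4% and 11.3% at day 21, against 8.59%, 8.16%, 1.91% and 6.86% at day 0 (difference 23.0, SE 6.09, adjusted p = 0.00891). The groups were apart each time. PGLYRP4 was called at days 7 and 14.

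Of the 15 S100A genes tested, 4 were gained in the KO clones (S100A12, S100A2, S100A13 and S100A1) and 5 at day 21 (S100A10, S100A11, S100A12, S100A2 and S100A14), with median differences of 6.51 and 16.5 points. These are 26.7% and 33.3%, against 18% and 26.5% over all genes. At day 7 the share was 20%, against 21.1%, and at day 14 it was 26.7%, against 22%. Called or not, 12 were higher and 3 lower in the KO clones, and 14 were higher and 1 lower at day 21. S100A13 contains S100A1, S100A8 overlaps S100A7A and S100A5 overlaps S100A4, so their values share bases. S100A12, a calcium-binding protein of neutrophils, had 77.3%, 70.1%, 80.0% and 25.3% in the KO clones, against 13.5% and 0% (difference 56.4, SE 17.5, adjusted p = 0.0306, limma). It had 80.0%, 80.5%, 75.3% and 29.9% at day 21, against 28.4%, 0%, 0% and 58.6% at day 0 (difference 44.7, SE 14.3, adjusted p = 0.0270). The day 21 groups overlapped through 1 library on each side.

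S100A2, S100A1 and S100A6 were picked after their values were seen. S100A2, expressed in epithelial basal cells, had 34.9%, 29.6%, 28.4% and 13.2% in the KO clones, against 0% and 0% (difference 26.5, SE 4.47, adjusted p = 0.000485, limma). After 21 days it had 33.4%, 30.4%, 34.4% and 27.2%, against 0% in all 4 at day 0 (difference 31.4, SE 3.65, adjusted p = 2.04e-05). Its start was touched by a peak in 1 of 16 KO and treated clone libraries and 1 of 14 others, so most of its peaks lay off the start. S100A1, a heart and muscle S100 protein, had 66.2%, 60.2%, 38.1% and 56.5% in the KO clones, against 16.4% and 15.2% (difference 39.4, SE 7.48, adjusted p = 0.00119). In the day 21 clones it had 35.7%, 25.8%, 36.2% and 13.7%, against 15.2%, 15.2%, 15.2% and 0% at day 0 (adjusted p = 0.0549).

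S100A6, calcyclin, made by many cell types, had similar levels in all groups. It had 45.9%, 59.7%, 49.7% and 44.4% in the KO clones, against 52.8% and 46.3%, and 44.0%, 44.0%, 48.4% and 39.7% at day 21, against 52.8%, 37.8%, 41.3% and 49.0% at day 0. The differences were 0.341 points (SE 5.69) and -1.20 points (SE 4.64), both within the spread of the libraries. Scaled by called length it was called lost at days 7, 14 and 21 (-49.7 points, adjusted p = 0.00109, limma, at day 21), and with gaps of up to 3 kb joined it was called gained at day 7. S100A16 had the highest mean of the family, 70.1%. It had 92.6%, 93.2%, 84.7% and 78.0% in the KO clones, against 84.4% and 78.6%, and 79.8%, 74.3%, 58.9% and 40.0% at day 21, against 74.4%, 30.9%, 53.9% and 50.1% at day 0. Neither was called (adjusted p = 0.864 and 0.487), though scaling by called length called it lost in both.

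The gain was there at the first time measured. At day 7 of dTAGV-1, 23 of the 52 genes were gained and 0 lost, against 21.1% gained and 0.243% lost over all genes tested. At day 14 there were 16 and 0, against 22% and 0.63%, and at day 21, as above, 22 and 0. The day 7 count was 14 without the second clone 8 library of day 0, and the day 14 count was 26 without the second clone 8 library of day 14. The shares over all genes in those fits are not given here. The days share their day 0 libraries, so no trend between them was tested. By block, the LCE block was 14.2% ± 1.84 covered at day 7, 11.7% ± 4.50 at day 14 and 14.1% ± 4.29 at day 21 (SD, n = 4 each), against 0.703% ± 0.360 at day 0. LCE2B and LCE2A averaged 96.8% and 95.1% at day 7, against 0% for both at day 0. SPRR1B held 34.1% ± 1.96 at day 7 and LORICRIN 100% at each day from 7 on. In the number of genes touched at all, the 57 had a median of 21 per library at day 0, 52.5 at day 7, 48 at day 14 and 51.5 at day 21. No such count was made over all genes.

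The dTAG parental line, which has no tagged NSD2, got the compound too. There 0 of the 52 genes were gained and 0 lost at day 21 (1 at an unadjusted p under 0.05, S100A9), against 0.0143% gained over all genes tested. The median difference was 1.92 points, against 0.848 over all genes. Its libraries had 24 and 39 of the 57 genes touched at day 21, against 22 and 27 at day 0. Calls in this line rest on 2 libraries against 2 and those in the clones on 4 against 4, so their numbers are not like for like. Tested directly, the change in the clones less that in the parental line differed from 0 for 1 gene, gained, and 0 were lost, against 1.93% and 0.0859% over all genes tested. That gene was LORICRIN (53.0 points, SE 12.3, adjusted p = 0.0366, limma), which was at 100% and 69.1% in the parental line at day 21, against 100% and 100% at day 0. S100A2 (24.5 points, SE 6.31, adjusted p = 0.0527) and SPRR2G (9.90 points, SE 2.98, adjusted p = 0.0892) came next. The count was 5 when scaled by called length, LORICRIN not among them, and 0 to 5 when 1 library was left out. It was 5 without the second day 21 library of either clone and 2 without the first day 21 parental library. It was 0 without either parental library of day 0, the second of day 21, the second clone 8 library of day 0, the first of day 21, either clone 11 library of day 0 or the first of day 21. No share over all genes is given here for these alternatives.

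Among the 15 KO gains, 10 (66.7%) were also gained at day 21, which is 45.5% of the 22 called there. Over all genes tested the shares were 74.8% of the 2510 gained in the KO clones and 50.8% of the 3697 gained at day 21, so the overlap in the complex was not above that of the genome. They were LCE1B, LCE1C, LCE3E, PGLYRP3, S100A12, S100A2, SPRR1B, SPRR2B, SPRR2F and SPRR2G. These comparisons share no libraries, but both used the same estimate of spread for each gene, so their calls are not independent. In all, the KO and treated clone libraries touched a median of 52 of the 57 genes (38 to 55), against 25.5 (19 to 39) in the other 14. Counting genes at least 50% covered, the medians were 17.5 and 4.5. These counts were not made over all protein-coding genes, and called length was larger in the KO and treated libraries, so they describe the 57 genes only.

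In windows of 25 kb, genes and the space between them were tested together. Of the 67 windows from S100A10 to S100A1, 43 were gained in the KO clones and 61 at day 21, against 37.3% and 51.6% of all 49816 windows. None was lost in either, against 0.524% and 0.367%. In the dTAG parental line there were 0, against 0%. All 15 windows of the LCE block and all 12 of the SPRR block were gained in both. In the S100-fused block 8 of 14 were gained in the KO clones and 11 of 14 at day 21, and in the S100A block 3 of 12 and 10 of 12. Median differences in the LCE block were 13.6 and 12.7 points, and in the SPRR block 12.3 and 10.2. Without the second KO parental library the KO count was 20, and without the first it was 28. The shares over all windows in those fits are not given here.

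**Figure D5:**
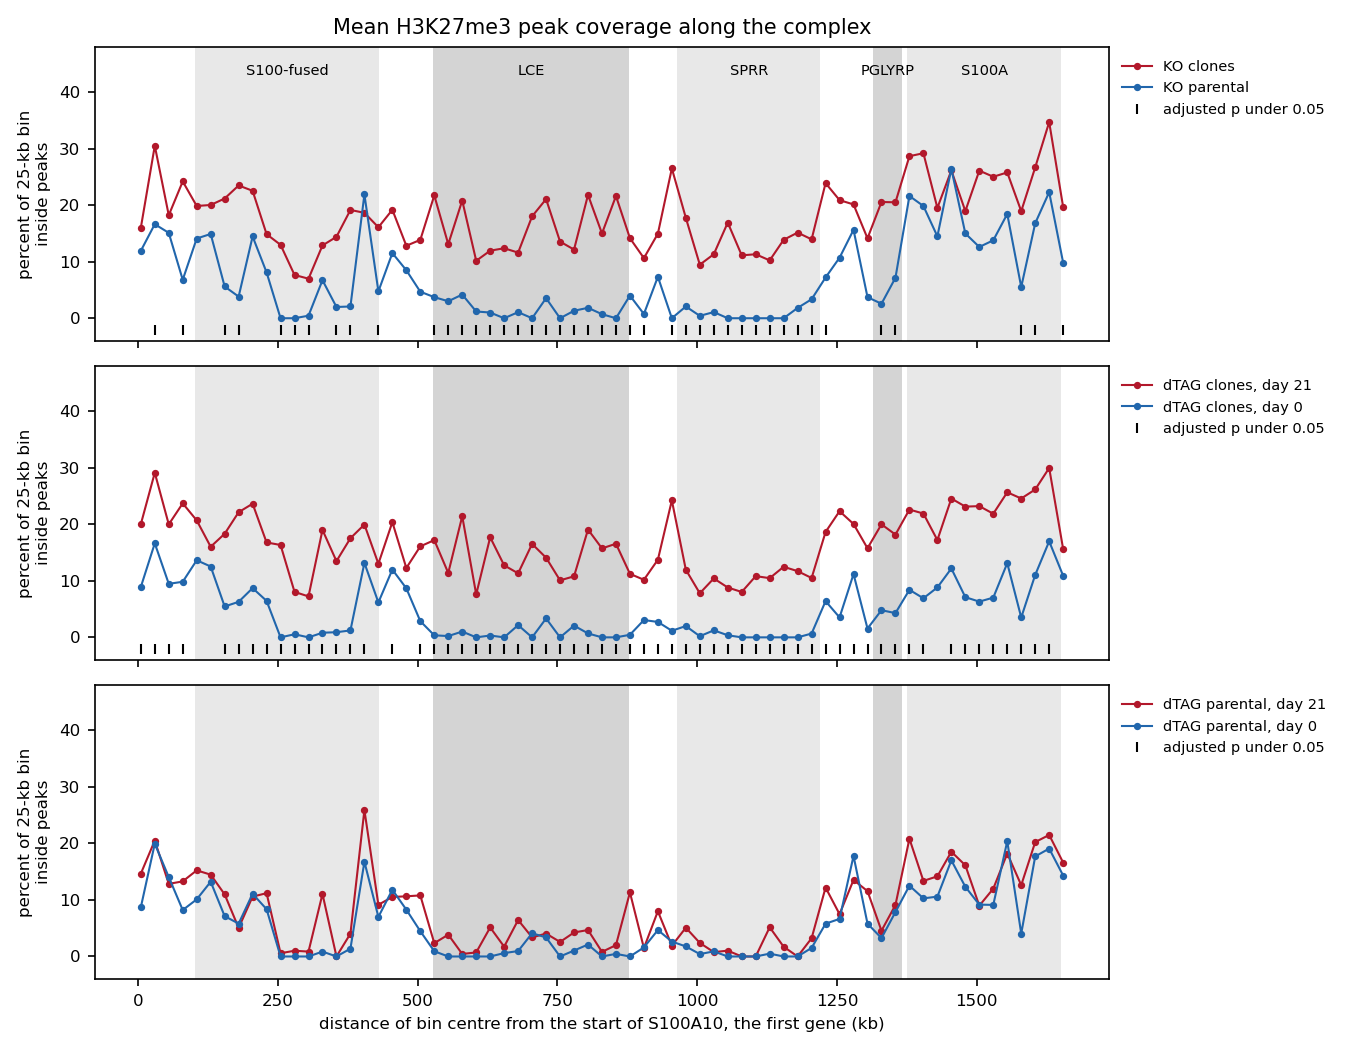
Mean percent of each 25-kb window inside peaks (vertical axis) against distance from the start of S100A10 (kb, horizontal axis) for the KO clones and their parental line, the dTAG clones at day 21 and day 0, and the dTAG parental line at day 21 and day 0, with blocks shaded. Ticks at the bottom mark windows with an adjusted p under 0.05; all windows of the LCE and SPRR blocks carry one in the first 2 panels and no window does in the third.

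Neighbouring genes and epidermal genes elsewhere were counted in the same fit. Of 4 genes that lie inside it but outside the naming rule, KPRP, LELP1, PRR9 and SMCP, 0 were gained in either comparison by limma (0 at an unadjusted p under 0.05), with median differences of 19.1 points in the KO clones and 15.4 at day 21. PRR9 was gained at days 7 and 14 (51.2 and 39.0 points, adjusted p = 0.0109 and 0.0419). Of 49 other tested genes in the same 3 Mb, 7 were gained in the KO clones and 12 at day 21 (OAZ3, SLC27A3 and C2CD4D with the largest changes there), with median differences of 2.23 and 3.19 points. These are 14.3% and 24.5%, against 18% and 26.5% over all genes tested. Of 20 tested epidermal genes elsewhere in the genome, from a list of 27, 2 were gained in the KO clones, TGM1 and DSP, and 3 at day 21, TGM5, TGM1 and DSP. These shares, 10% and 15%, were below the 18% and 26.5% of all genes. TGM1, the transglutaminase that cross-links the envelope, averaged 25.4% ± 3.65 (SD, n = 4) for the KO clones, against 5.07% ± 7.17 for the KO parental line (n = 2, adjusted p = 0.00268, limma). By day 21 it was 19.3% ± 4.55, against 3.72% ± 6.21 at day 0 (n = 4 each, adjusted p = 0.00297). DSP, desmoplakin, was 10.8% ± 4.60 in the KO clones, against 2.28% ± 0.0926. The median differences of the 20 were 1.91 and 4.46 points, against 1.46 and 2.05 over all genes tested.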

How the data were processed

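H3K27me3 CUT&Tag peak lists of 30 libraries were used, and 10 further libraries (IgG, H3K27ac and H3K4me3) were not analysed here. Per the submitters' processing notes, the build was hg38 and the tools, named with no roles, were MACS3 3.0.2, ChIPseeker 1.42.1, DESeq2, Bowtie2, fastp 0.24.0, Picard, SAMtools and deepTools 3.5.1. The authors deposited 1 list per library, with a score per peak, a fold enrichment ratio, a -log10 p and a -log10 q. The sources used here give no calling options, no control and no treatment of reads with several matches. Read depth is unknown, and the pileup was solved from the fold and p of the shortest 2% of peaks, on the assumption of a genome-wide background.

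Peaks were merged within a library, and the covered percent was computed per protein-coding gene (RefSeq, GRCh38.p14) and per 25-kb window. Features with a mean of 1% to 99%, genes of at least 1 kb, were fitted with limma 3.58.1 (R 4.3.3, trend on the mean) over 15 groups of 2, with 15 residual degrees of freedom, and adjusted over all features. Each clone at each day was its own group, so SE and p hold the spread within clones and not that between them. The fit was tested on simulated data. Adjusted p can be too small for genes at 0% in all libraries of a group. The alternatives were scaling by called length, pileup as a covariate, lists of equal called length, -log10 q of at least 5, gaps up to 3 kb joined, a replicate block, only the compared groups, and leaving out each library. The settings for the blocks were chosen after seeing the data.

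Genes named with values in each library are the 6 with the largest change among those called in the KO and day 21 comparisons, the gene with the highest mean in each family, FLG, LORICRIN and IVL, and others where said. The genes and lists were chosen with earlier results of these data known. Python 3.11.15 with numpy 2.4.6, pandas 2.3.3, scipy 1.17.1 and matplotlib 3.10.9 did the rest. One list of marker genes is not reported here.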

Additional observations from a re-analysis of the deposited data

Results flagged for a closer look

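Dixon's criterion flagged a single library in 15 of 71 sets of 4 libraries, each from 2 clones. Its rate of about 1 in 20 by chance holds for normal values, while these are bounded at both ends and often tied. Where 3 of the 4 values are equal any difference is flagged, however small, as for LCE6A in the KO clones and LCE3E, SPRR2G and S100A1 at day 0. In the KO clones the flagged values were LCE6A in the second clone 12 library (92.3% covered), LCE1B in the second clone 3 library (0%), LCE1E in the second clone 12 library (9.08%) and LCE5A in the first clone 3 library (90.4%). At day 21 the second clone 11 library was low for S100A12 (29.9%), LCE1D (35.7%), SPRR2E (0%) and FLG (9.22%). The second clone 8 library of day 21 was low for LCE2B (15.1%), LCE3C (69.1%) and SPRR1B (17.1%) and high for SPRR2A (82.4%). At day 0 the first clone 8 library was high for LCE3E (81.1%) and SPRR2G (1.25%), and the second clone 11 library was low for S100A1 (0%).

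LORICRIN changed more in the dTAG clones than in the dTAG parental line from day 0 to day 21, by 53.0 points in the test of that difference (adjusted p = 0.0366, limma). Both parental libraries of day 0 and all 4 clone libraries of day 21 were at 100%, the highest value possible, so the parental line could not go up. The call was lost when scaled by called length (37.5 points, adjusted p = 0.586), with equal lists (adjusted p = 0.0664) and without any 1 of several libraries.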

How the results depend on the processing

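Counts of gained genes were 2 (KO), 3 (day 7), 8 (day 14), 4 (day 21) and 0 (clones minus parental) with lists of equal length, and 0 in all 5 with -log10 q of at least 5. Scaled by called length they were 15 at day 7, 14 at day 21 and 5 for clones minus parental, and with pileup as a covariate 14, 12 and 3. With only the compared groups they were 7 (KO) and 3 (clones minus parental), and with gaps joined 0 for clones minus parental. Lost genes numbered 5 (KO), 4 (day 7), 4 (day 14) and 5 (day 21) when scaled, 1 in the KO comparison with equal lists, with pileup and with the replicate block, and 1 at days 14 and 21 with pileup. Gained windows numbered 4 (KO) and 16 (day 21) with equal lists, 0 and 1 with -log10 q of at least 5, and 34 at day 21 when scaled. The cause was not tested, though equal and stricter lists hold fewer peaks and genes. The counts in this section are given without the share over all genes or windows in the same fit, so they describe the complex only.

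Replicate numbers were not taken to pair the libraries, since the labels do not say so and 84 of 105 correlations between groups, not all, were over 0.1. All were positive (0.0335 to 0.558, median 0.187), and replicate 1 had more called Mb in 13 of 15 groups. With the replicate block the gained genes were 20 (KO), 31 (day 7), 22 (day 14), 29 (day 21) and 3 (clones minus parental), and the gained windows 49 (KO) and 64 (day 21). The block added LCE2B, SPRR2A, RPTN, CRNN and PGLYRP4 as gained and TCHH as lost in the KO comparison, and LCE1E, RPTN, CRNN, PGLYRP4, S100A8, S100A7 and S100A1 as gained at day 21.

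Leaving out 1 library gave 8 to 17 gained genes (KO), 14 to 22 (day 7), 11 to 26 (day 14), 15 to 27 (day 21), 0 (dTAG parental) and 0 to 5 (clones minus parental), 0 lost, and 20 to 46 (KO), 43 to 63 (day 21) and 0 (dTAG parental) gained windows.

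Differences that changed sign, in points, were, when scaled, LCE1D -2.28, TCHHL1 -5.35, FLG -0.535, S100A16 -52.2, LORICRIN -47.6, S100A6 -33.3 and the S100A block -4.33 in the KO comparison, and TCHHL1 -12.7, S100A16 -45.2, LORICRIN -38.1 and S100A1 -0.961 at day 21. With -log10 q of at least 5 they were S100A16 -19.1 and LORICRIN -6.21 (KO), and S100A16 -4.11 and the PGLYRP block -0.419 (day 21). With pileup they were S100A16 -2.55 and S100A6 -2.003 (KO) and S100A16 -5.42 (day 21), with equal lists S100A16 -14.3 (day 21), and with gaps joined S100A6 39.7 (day 21). Leaving out 1 library, S100A6 ran from -3.12 to 3.80 (KO) and from -4.95 to 2.55 (day 21).

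Alternative values were taken for single genes, blocks and counts of genes touched. Of these, 636 were labelled unchanged, 106 fell short of the threshold, 28 came to pass it and 26 changed sign. For genes, unchanged means the same direction and side of the threshold. For blocks, which have no test, it means a move smaller than the spread between libraries. The other 45, with no test, moved by more than that or, for counts of genes touched, by more than a factor of 1.5. Depth is only estimated, clones recur on several days, and the lists show neither NSD2 protein nor expression.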
